A study of Arabidopsis thaliana with 91 samples.

Results

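The VIM (VARIANT IN METHYLATION) genes of Arabidopsis thaliana were followed through every deposited peak list of a chromatin study in which histone H3 lysine 4 trimethylation (H3K4me3) was directed to a chosen locus. The family was taken by locus as 5 genes, VIM1 (AT1G57820), VIM2 (AT1G66050), VIM3 (AT5G39550), VIM4 (AT1G66040) and VIM5 (AT1G57800), out of 27444 nuclear protein-coding genes and 37899 nuclear genes of all kinds. VIM4 drew attention to the family because its start carried H3K4me3 in one transgenic line and not in its wild type, so that comparison is given as a description, without a test. A region was the gene span plus 1 kb upstream, and 169 peaks of 50 libraries fell in the 5 regions.

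VIM proteins, also called ORTHRUS, carry a PHD finger, RING domains and an SRA domain that binds methylated cytosine. They are relatives of mammalian UHRF1 and are needed for the maintenance methyltransferase MET1 to copy CG methylation after replication. VIM1, VIM2 and VIM3 act redundantly in this, and VIM5 is known as a gene expressed mainly from the paternal copy in endosperm. H3K4me3 marks the starts of active genes, H3K14ac is an acetylation found on active chromatin, and H2A.Z is a histone variant placed near gene starts and over the bodies of responsive genes.

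All 50 libraries were leaf tissue of 4 to 5 week old plants of the Columbia-0 ecotype, and each was deposited as its own peak list. H3K4me3 was measured in 29 libraries, H3K14ac in 6, H2A.Z in 7 and the Myc tag in 8. SDG2-ZF carries the catalytic domain of the H3K4 methyltransferase SDG2 on the zinc finger ZF108, designed against the flowering gene FWA and driven in Col-0 by the UBQ10 promoter. The paper reports that ZF108 also binds many sites away from FWA. Most of those sites gained H3K4me3 in SDG2-ZF, and the paper also reports Myc-ROS1, H3K14ac and H2A.Z enriched there. Whether VIM4 lies at such a site was not tested. SDG2-ZF_rdd carries it in a mutant without the DNA demethylases ROS1, DML2 and DML3, and rdd is that mutant alone. SunTag-SDG2_rdr6 uses dCas9 with guides to FWA to bring in the SDG2 domain, in rdr6 plants that silence transgenes less, and noguideSDG2_rdr6 and rdr6 are its controls. The line labelled SDG2(H1866K)cd carries SDG2 with a catalytic-site mutation. The paper describes an H1866K version of SDG2-ZF on the same zinc finger, in which H3K4me3 deposition at FWA was blocked. TRBIP1-ZF, compared with fwa, and TRBIP1-dCAS9-MQ1v, compared with fwaxrdr6 and dCAS9-MQ1v, carry TRBIP1, a protein linked to H3K4 demethylation, in plants in which FWA had lost its methylation, and MQ1v is a bacterial CG methyltransferase variant. Myc-tagged ROS1 and the Myc-tagged H3K4 demethylase JMJ14 were profiled with and without SDG2-ZF or TRBIP1-ZF, next to an untagged Col-0. The labels give each library a set number from 1 to 11 without saying what a set is, and they do not say that replicates came from separate plants, so a p-value here measures only the spread between these libraries. The UBQ10 promoter is active in most cell types. In bulk leaf, fewer cells with a mark and less mark per cell cannot be told apart.

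Lists held 9647 to 28847 peaks for H3K4me3, 5635 to 24156 for H3K14ac, 12217 to 30556 for H2A.Z and 808 to 14212 for Myc. The 6 H3K4me3 libraries of set 11 stood apart, with median fold enrichments of 1.67 to 1.96 against 3.82 to 6.45 in the other 23. The leaf label was met by its markers, since RBCS1A, RCA and PSBO1 had an H3K4me3 peak within 500 bp of the start in 29 of 29 lists, RBCS2B in 27 and LHCB1.1 in 20. Of the seed storage genes, SESA1 had one in 4 lists and CRU1 in 5, and the pollen gene VGD1 had one in 1. FWA had an H3K4me3 peak at its start in 3 of 3 SDG2-ZF, 2 of 2 SDG2-ZF_rdd and 2 of 2 SunTag-SDG2_rdr6 lists, and in 0 of 2 Col-0, rdd and rdr6 lists.

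The members lie in 3 places of the TAIR10 genome. VIM4 (chromosome 1, 24583740 to 24586760, minus strand) and VIM2 (chromosome 1, 24589343 to 24592780, plus strand) are neighbours that point away from each other, with 2582 bp between their starts. VIM5 (chromosome 1, 21408623 to 21412283) and VIM1 (chromosome 1, 21413981 to 21418115) follow each other on the minus strand with 1697 bp between the end of VIM1 and the start of VIM5. VIM3 lies alone on chromosome 5 (15837178 to 15840678, minus strand). VIM1 has 10 exons and each of the others has 9. VIM2, VIM3 and VIM4 share a first coding exon of 423 bp, against 474 bp in VIM1 and 510 bp in VIM5.

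VIM4 and VIM2 are close copies, which bears on every peak called at either. Over 3315 aligned bases they were 97.6% identical, with 79 differences, and from 670 to 2719 bp downstream of the VIM4 start they shared 2050 bp without a single difference. VIM4 and VIM3 were 95.2% identical over 3388 bases, and their longest identical run was 141 bp. VIM1 aligned with VIM4 over only 1509 bases at 79.2%, and with VIM5 over 1858 bases at 86.1%. Of the 150-base words (the read length of the study) in the VIM4 region, 1918 of 3872 had another exact copy in the genome. In the VIM2 region 1918 of 4289 did, and in those of VIM1, VIM3 and VIM5 none did. The part of VIM4 that carried H3K4me3 lay mostly ahead of the shared stretch. A stretch of the first coding exon is printed below from 160 to 339 bp downstream of the VIM4 start (coding bases 82 to 261), because the H3K4me3 summits of SDG2-ZF fell inside it and because it shows which bases tell a VIM4 read from a VIM2 or VIM3 read. The sequences are from the RefSeq copy of TAIR10, 5′ to 3′ along each gene, and capitals mark bases that differ from VIM4. They lie at chr1:24586421-24586600 (minus strand), chr1:24589615-24589794 (plus strand) and chr5:15840243-15840422 (minus strand).
VIM4: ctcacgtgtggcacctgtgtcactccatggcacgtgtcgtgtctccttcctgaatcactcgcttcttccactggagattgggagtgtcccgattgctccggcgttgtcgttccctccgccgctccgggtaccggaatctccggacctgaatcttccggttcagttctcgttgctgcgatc
VIM2: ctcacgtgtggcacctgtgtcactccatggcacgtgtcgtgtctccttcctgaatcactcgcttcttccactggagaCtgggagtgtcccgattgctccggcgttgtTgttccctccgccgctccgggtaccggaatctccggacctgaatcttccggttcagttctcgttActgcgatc
VIM3: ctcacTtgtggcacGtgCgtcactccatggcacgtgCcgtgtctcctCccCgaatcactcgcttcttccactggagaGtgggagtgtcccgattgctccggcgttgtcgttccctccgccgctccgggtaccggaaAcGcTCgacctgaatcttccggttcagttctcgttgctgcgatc
VIM2 differed from VIM4 at 3 of these 180 bases and VIM3 at 11, and over the whole 423 bp exon they differed at 6 and 26. The window held 16 CG dinucleotides in VIM4, 15 in VIM2 and 19 in VIM3. The 120 bases directly upstream of the VIM4 start (chr1:24586761-24586880, minus strand) are shown with CG in capitals, since the H3K4me3 of SDG2-ZF_rdd and the Myc-ROS1 peaks reached into them.
VIM4 upstream: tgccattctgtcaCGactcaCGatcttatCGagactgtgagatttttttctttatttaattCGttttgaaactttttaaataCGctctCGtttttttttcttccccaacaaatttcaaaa
These 120 bases held 6 CG dinucleotides.

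H3K4me3 at VIM4 was present in the lines with unmutated SDG2 on the zinc finger and absent from most others. A peak within 500 bp of the start, here called a start peak, was listed for VIM4 in 10 of 29 libraries. These were 5 of 5 libraries of SDG2-ZF and SDG2-ZF_rdd and 5 of 6 libraries of set 11, and in the 18 remaining libraries there was none. Of all nuclear protein-coding genes, 29.4% to 63.7% had a start peak in any one H3K4me3 list, so VIM4 was among the genes without the mark in most leaf libraries. Each value that follows is a fold enrichment, the height of the peak over the local background estimated when the peaks of that library were called.

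In SDG2-ZF the VIM4 start peak had folds of 5.10, 6.69 and 5.46 in replicates 1 to 3, and in Col-0 of the same set neither replicate had a peak. Within each list, 82.4%, 91.6% and 80.7% of peaks had a lower fold. The peaks began 9, 49 and 48 bp upstream of the start and ended 519, 664 and 548 bp downstream, with summits at 202, 279 and 213 bp, all in the first coding exon. The stretch covered in every replicate was 529 bp long (chr1:24586241-24586769). Ranked by the lowest fold over replicates, it stood at place 1 of 1398 segments gained in this line.

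The other members did not share this pattern. VIM1 had no peak in SDG2-ZF replicate 1 and folds of 1.89 and 2.21 in replicates 2 and 3, with none in either Col-0 library. VIM3 carried the mark in both lines, with 3.16 and 2.14 in Col-0 and 2.81, 2.90 and 2.85 in SDG2-ZF, so that the groups overlapped. VIM2 and VIM5 had no start peak in any of these 5 libraries. Thus 1 of 5 members was gained and 0 lost, beside 5.57% of all coding genes gained and 0.485% lost, and since this comparison chose VIM4 nothing is read from that count.

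**Figure D1:**
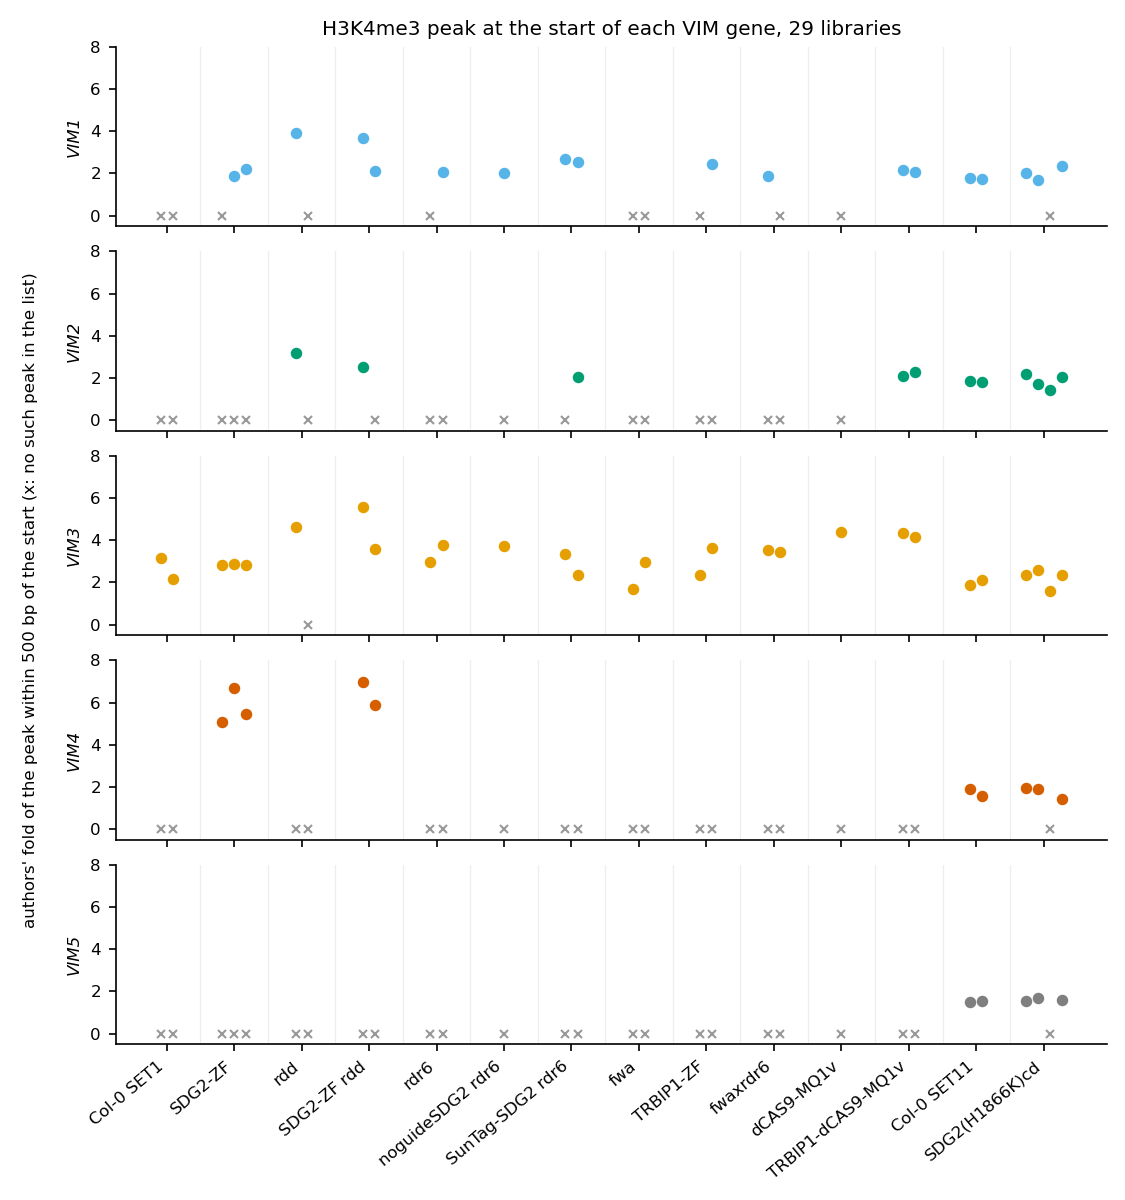
Fold enrichment of the H3K4me3 start peak (vertical axis) of each VIM gene, 1 panel a gene, in 29 libraries grouped by line (horizontal axis), with libraries without a peak at the base. VIM4 stands between 5.10 and 6.99 in the 5 libraries of SDG2-ZF and SDG2-ZF_rdd and between 1.41 and 1.93 in 5 of the 6 libraries of set 11, and VIM3 has a peak in 28 libraries.

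In the demethylase mutant, in libraries that had no part in the choice of VIM4, the same start was marked. SDG2-ZF_rdd had folds of 6.99 and 5.90 at VIM4, where 86.4% and 65.0% of the listed peaks were lower, and neither rdd library had a peak. The peaks ran from 118 and 97 bp upstream to 731 and 650 bp downstream. Their shared stretch of 748 bp was at place 2 of 1893 gained segments and covered the 529 bp segment of SDG2-ZF whole, which made up 70.7% of it. VIM1 stood at 3.70 and 2.13 in SDG2-ZF_rdd against 3.94 and no peak in rdd. VIM3 stood at 5.60 and 3.58 against 4.62 and no peak, and VIM2 at 2.50 in replicate 1 against 3.20 in rdd replicate 1. The rdd library with no peak at any member was replicate 2, which listed 12992 peaks, the fewest outside set 11. VIM4 was the only one of 5 members gained here and none was lost, beside 7.32% gained and 0% lost over all coding genes. Without rdd replicate 1, VIM1 and VIM3 were also called gained, which gives 3 of 5.

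SunTag-SDG2_rdr6, which marked FWA in both libraries, had no peak at VIM4 in either, and neither did rdr6 or the no-guide line. VIM1 had folds of 2.68 and 2.55 with SunTag, none and 2.09 in rdr6 and 2.04 without guides. By percent covered the groups overlapped, with 6.10% and 5.08% against 0% and 5.82% in rdr6 and 3.35% without guides. VIM2 had a single peak, at 2.06 in SunTag replicate 2. VIM3 was marked in every library, at 3.36 and 2.34 with SunTag and at 2.99 to 3.75 in the controls. No member was gained or lost, beside 2.88% and 0.321% of coding genes.

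Over both backgrounds the percent of each region covered by H3K4me3 peaks was compared between the lines with SDG2 and their controls, by an exact two-sided permutation of library labels within rdd and within rdr6. This design has 60 arrangements, of which the smallest exact permutation p is 0.0167. VIM4 had 21.1% and 18.6% covered in SDG2-ZF_rdd and 0% in both rdd libraries, a difference of 19.9 points, and 0% in all 5 libraries of the rdr6 background. The mean difference was therefore 9.94 points, with exact permutation p = 0.333, which with no coverage in rdr6 was the smallest p that VIM4 could reach. For VIM1 it was 4.10 points (exact permutation p = 0.1), or 0 points with equal numbers of peaks and 2.07 to 6.12 with 1 library left out. For VIM3 it was 2.38 points (exact permutation p = 0.617), or 0.063 without rdd replicate 2 and 4.71 without rdd replicate 1. For VIM2 it was 1.03 points (exact permutation p = 0.8), and VIM5 was uncovered throughout. VIM4 exceeded the mean of its 4 paralogues by 8.06 points (exact permutation p = 0.283). Set against VIM2 alone the excess was 8.91 points (exact permutation p = 0.333). The test weights both backgrounds equally, and with VIM4 at 0% throughout rdr6 these p-values say little about VIM4. Each difference within rdd rests on 2 libraries against 2, where p cannot fall below 0.333.

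**Figure D2:**
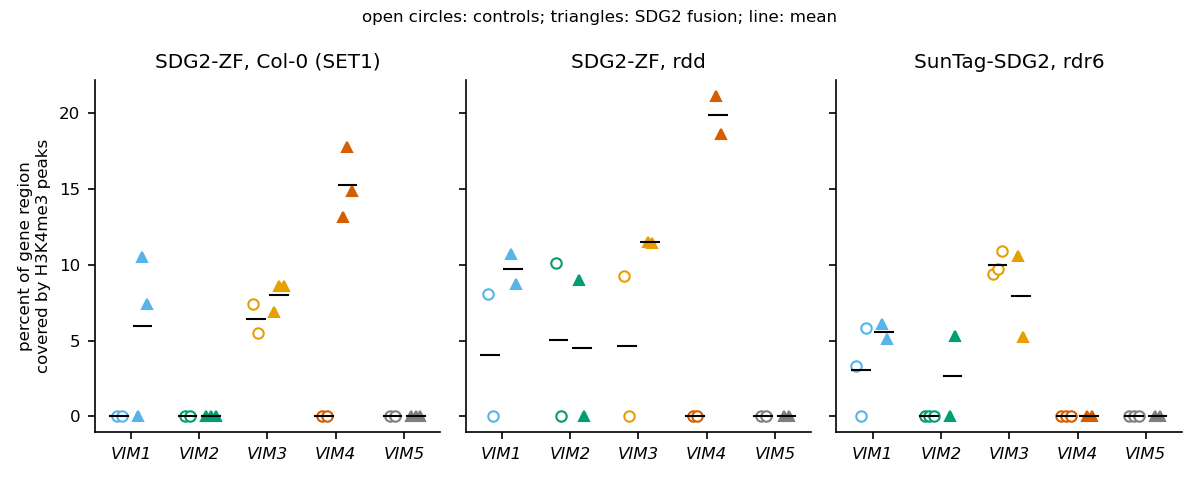
Percent of each VIM region covered by H3K4me3 peaks (vertical axis) in libraries with the SDG2 fusion and in their controls, in the Col-0, rdd and rdr6 backgrounds, with 1 point a library. VIM4 is at 13.2% to 17.8% with SDG2-ZF in Col-0, at 18.6% and 21.1% in rdd and at 0% in every control and every rdr6 library.

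The libraries of set 11 gave a different picture, with low folds at all 5 members. VIM4 stood at 1.92 and 1.58 in Col-0 of this set, and at 1.93, 1.9, no peak and 1.41 in the line labelled SDG2(H1866K)cd. The groups overlapped, and the Col-0 stretch of 322 bp lay whole inside the 529 bp segment of SDG2-ZF. VIM2 was marked in all 6 libraries, at 1.85 and 1.82 in Col-0 and at 1.42 to 2.2 in the mutant line. VIM5 had its only H3K4me3 start peaks here, at 1.50 and 1.54 in Col-0 and at 1.53, 1.71, none and 1.57 in the mutant line. The library without a VIM4, VIM1 or VIM5 peak was replicate 3 of the mutant line, with 9647 peaks the shortest H3K4me3 list. No member was gained or lost, beside 0.0401% and 1.54% of coding genes. VIM1, VIM2, VIM4 and VIM5 thus had no start peak in Col-0 of set 1 and had one in both Col-0 libraries of set 11. Their −log10 q in the latter were 2.57 to 6.95. The lowest listed value was 2.00 in the Col-0 lists of set 1 and 1.30 in those of set 11. The parts of this threshold and of the lower enrichment of set 11 were not tested.

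In the lines with TRBIP1, VIM4 had no H3K4me3 peak, and VIM2 had one in TRBIP1-dCAS9-MQ1v and none in TRBIP1-ZF. VIM4 and VIM5 had no peak in TRBIP1-ZF, fwa, TRBIP1-dCAS9-MQ1v, dCAS9-MQ1v or fwaxrdr6. VIM2 had start peaks of 2.11 and 2.28 in TRBIP1-dCAS9-MQ1v and none in the 2 fwaxrdr6 libraries or the dCAS9-MQ1v library. The shared stretch of 238 bp lay 232 to 469 bp downstream of the VIM2 start, and 0 of its 89 inner 150-base words had another copy. Of the 50-base words that start in it, 36.1% had one. Coverage of the VIM2 region was 5.85% ± 0.685 (SD, n = 2) against 0% (n = 2), at the smallest exact permutation p this design allows, 0.333. VIM1 had 2.18 and 2.08 against 1.86 and none in fwaxrdr6 and none in dCAS9-MQ1v, and VIM3 4.35 and 4.15 against 3.52 and 3.45 in fwaxrdr6 and 4.37 in dCAS9-MQ1v. One of 5 members was gained and none lost, beside 0.791% and 0.94% of coding genes, and the gained count was 0 with a 300 bp minimum. In TRBIP1-ZF against fwa no member was gained or lost, beside 0.692% and 0.78%, and VIM3 stood at 2.38 and 3.65 against 1.69 and 2.99. VIM1 had a peak of 2.45 in 1 of 2 TRBIP1-ZF libraries and none in fwa.

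Across the 29 libraries the members therefore fell in the order VIM3, VIM1, VIM2, VIM4 and VIM5 by how often they were marked. VIM3 had a start peak in 28 libraries (folds 1.62 to 5.60, median 2.99), VIM1 in 18 (1.69 to 3.94, median 2.11) and VIM2 in 11 (1.42 to 3.20, median 2.06). VIM4 had one in 10 (1.41 to 6.99) and VIM5 in 5 (1.50 to 1.71). VIM2 and VIM4 are 1 library apart in that order, and the fold ranges of all neighbours in it overlap. Outside set 11 the peaks of VIM3, VIM1 and VIM2 had a median of 20.9%, 6.37% and 7.66% of the same list below them, and the highest was 68.4%, at VIM3 in SDG2-ZF_rdd replicate 1. In set 11 these medians were 73.9%, 54.2% and 56.4%.

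The genes whose H3K4me3 coverage over the 29 lists was most like that of VIM4 were AT5G16740 (Pearson r = 0.987), XTH33 (0.985), ZIP9 (0.977), GRP20 (0.971) and AT5G07570 (0.970), as a description over libraries that share lines and sets. Each of the 5 was marked in 5 of 5 SDG2-ZF and SDG2-ZF_rdd lists, which their choice by r favours. Like VIM4, 4 of them had a peak in 10 of 29 lists and in 5 of 6 lists of set 11, while ZIP9 had one in 29 of 29. GRP20 and AT5G07570 are neighbours and can share peaks. The paralogues had r = 0.62 for VIM1, 0.27 for VIM2, 0.26 for VIM3 and 0.25 for VIM5. The 29 lists include those that set VIM4 apart from them, so nothing is read from these lower values.

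**Figure D3:**
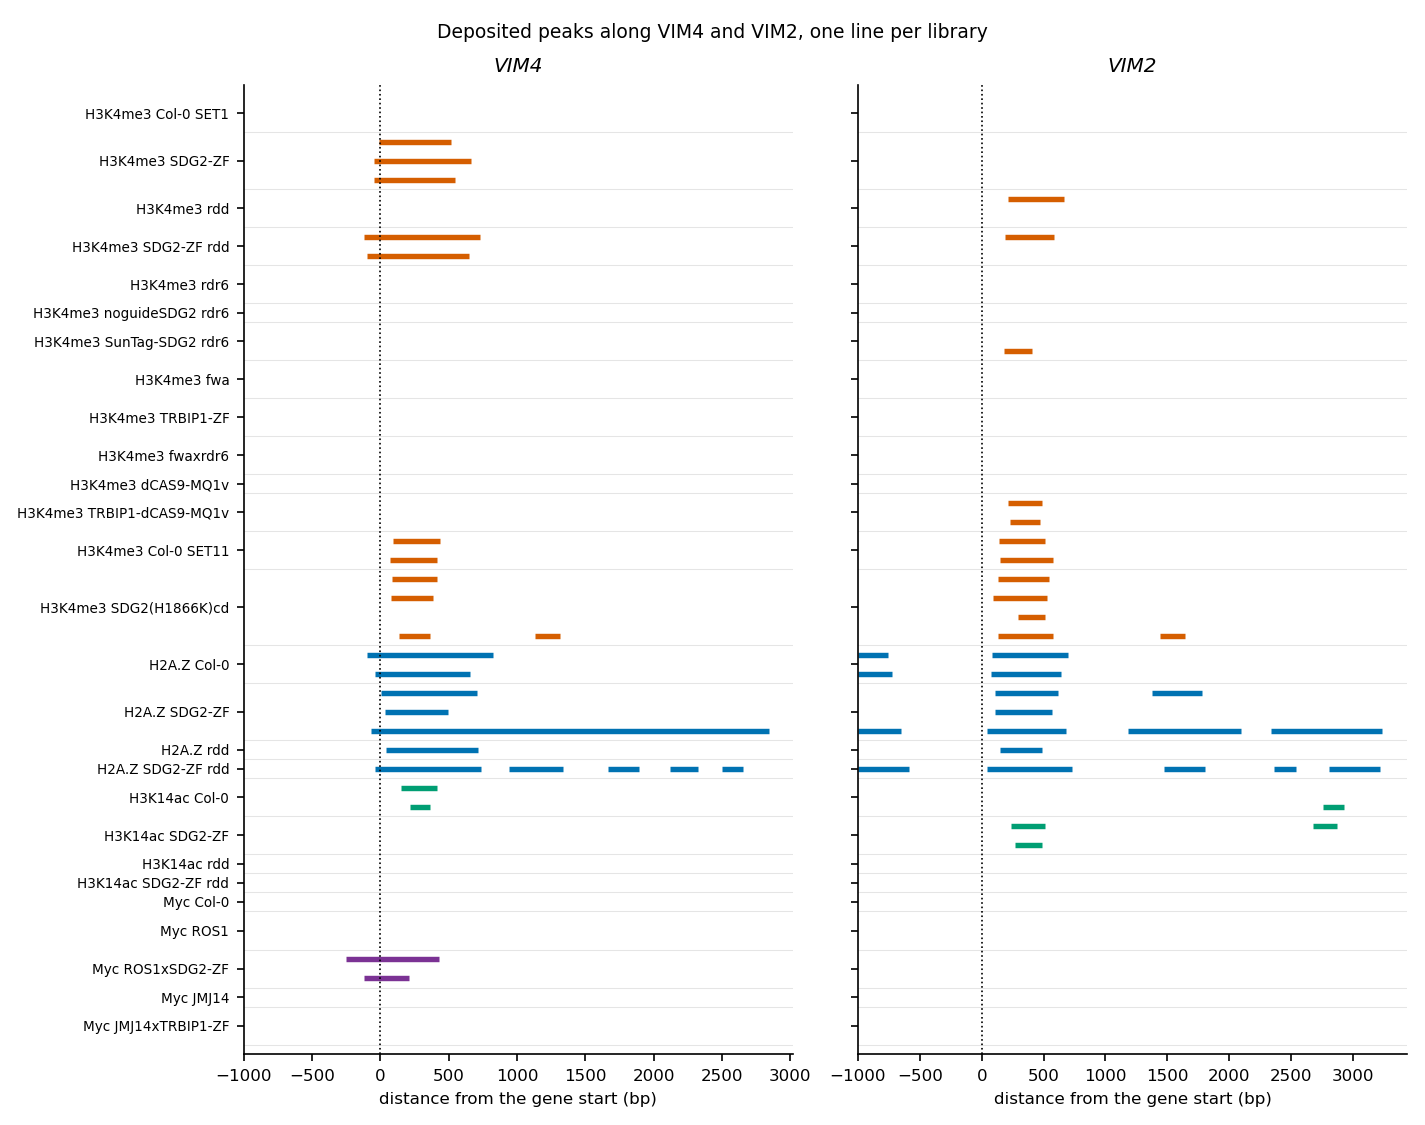
Peaks along VIM4 and VIM2 (horizontal axis, bp from the gene start), with 1 line a library, grouped by assay and line. At VIM4 the H3K4me3 peaks of SDG2-ZF and SDG2-ZF_rdd and the Myc peaks of ROS1xSDG2-ZF lie over the start, and the H2A.Z peak of SDG2-ZF replicate 2 runs to 2844 bp.

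At the base level, the H3K4me3 gained at VIM4 can be placed apart from its copies to a known degree. Within the 529 bp segment VIM4 differed from VIM2 at 13 aligned bases and from VIM3 at 34, and it held 33 CG dinucleotides. Of the 380 words of 150 bases that lie wholly inside, 17 had another exact copy. In the 748 bp segment of SDG2-ZF_rdd 17 of 599 words of 150 bases and 33.2% of 50-base words had one. There 26 of 728 aligned bases differed from VIM2. Reads were mapped with the default settings of Bowtie2, which place a read with equally good matches at one of them, so reads of the identical 2050 bp cannot be told apart between VIM4 and VIM2. VIM2 had no start peak in any SDG2-ZF library and in 1 of 2 SDG2-ZF_rdd libraries.

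**Figure D4:**
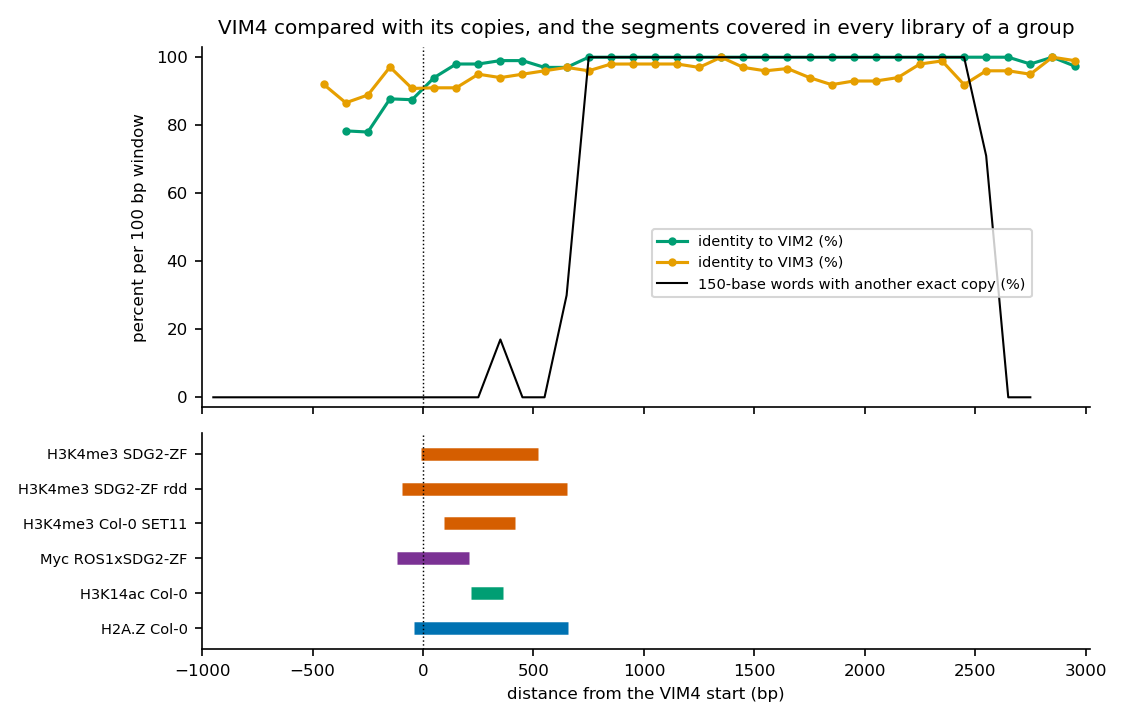
Identity of VIM4 to VIM2 and VIM3 in windows of 100 bp (percent), 150-base words with another exact copy, and the segments covered in every replicate of a line, along VIM4 (horizontal axis, bp from the start). The H3K4me3, H3K14ac and Myc segments at the start end within or before the first 650 bp, ahead of the stretch identical to VIM2 that begins at 670 bp.

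H3K14ac did not follow H3K4me3 at VIM4. In Col-0, VIM4 had a start peak at 2.57 and 1.84, and in SDG2-ZF neither library had one. The stretch lost was 147 bp long, 215 to 361 bp downstream of the start, and lay whole inside the segment that carried H3K4me3 in SDG2-ZF, taking up 27.8% of it. Coverage was 0% (n = 2) in SDG2-ZF against 5.10% ± 2.04 (SD, n = 2) in Col-0, at the smallest exact permutation p of 0.333. VIM2 went the other way, with 1.69 and 1.75 in SDG2-ZF and no start peak in Col-0, over a stretch of 222 bp from 267 to 488 bp. The VIM2 peaks exceeded only 6.88% and 7.96% of their lists, and the VIM4 peaks of Col-0 exceeded 45.1% and 7.79%.

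VIM3 and VIM5 carried H3K14ac in both lines. VIM3 had 3.55 and 4.96 in Col-0 and 3.56 and 3.97 in SDG2-ZF, and VIM5 had 1.84 and 2.89 in Col-0 and 2.44 and 2.66 in SDG2-ZF. Both groups overlapped. VIM1 had no H3K14ac at its start in any of 6 lists. VIM5, unmarked by H3K4me3 outside set 11, thus had H3K14ac at its start in 5 of 6 lists, as did VIM3. Of all coding genes, 19.4% to 67% had a start peak in any one H3K14ac list. One of 5 members was gained and 1 lost, beside 5.07% and 2.36% of coding genes, and both calls ended with peaks of −log10 q of at least 5 and with segments of at least 300 bp.

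**Figure D5:**
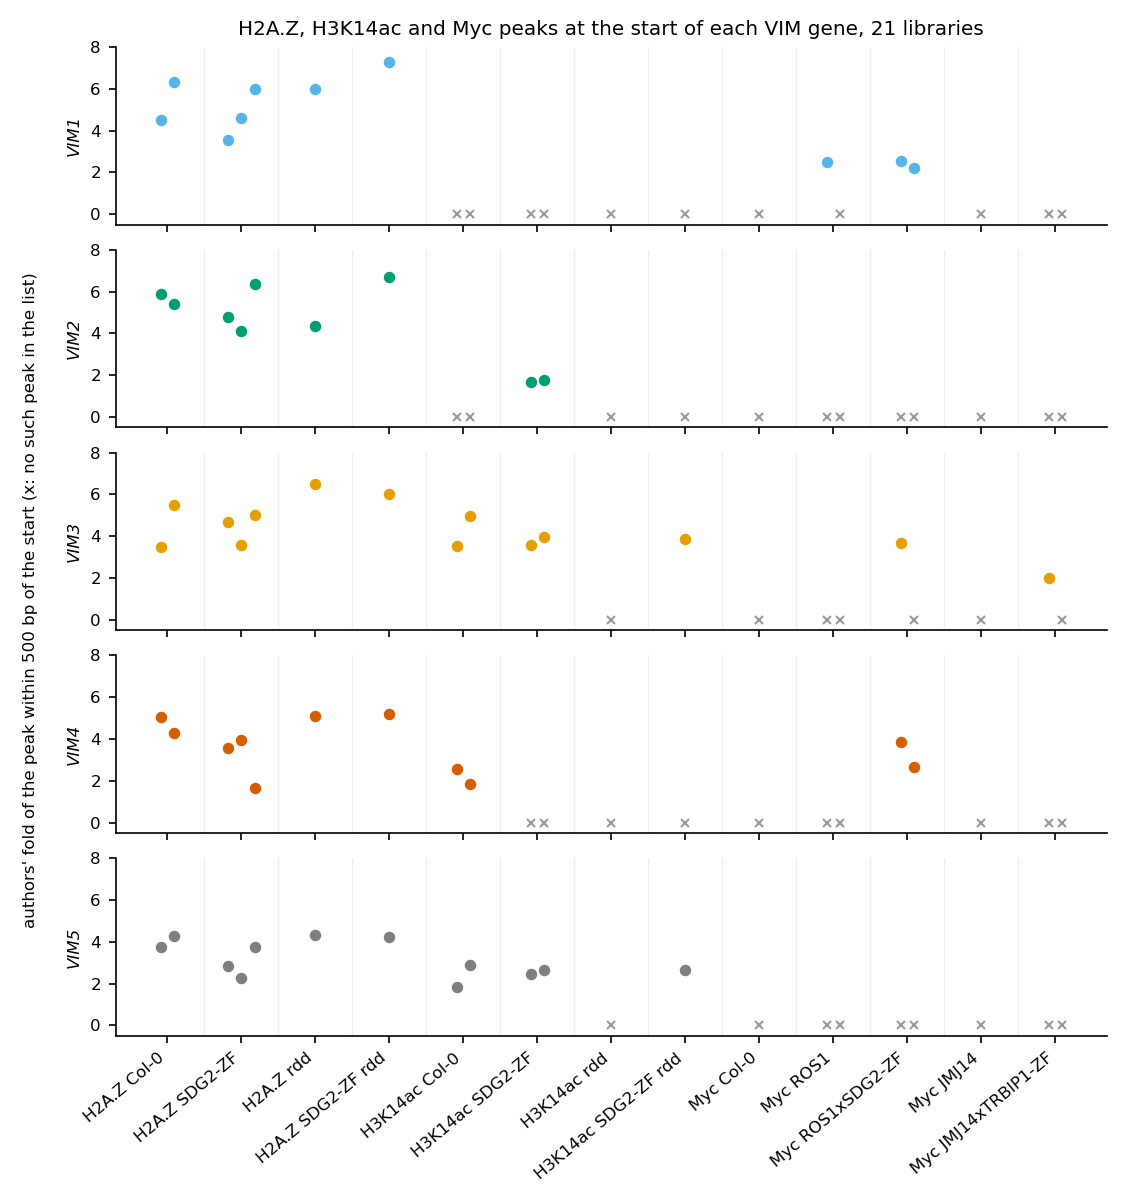
Fold enrichment of the start peak (vertical axis) of each VIM gene for H2A.Z, H3K14ac and the Myc tag in 21 libraries (horizontal axis), with libraries without a peak at the base. All 5 genes have an H2A.Z peak in 7 of 7 libraries, and the Myc peaks of VIM4 are in the 2 ROS1xSDG2-ZF libraries.

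H2A.Z was the mark the family shared. Each of the 5 members had a start peak in 7 of 7 lists, where 34.4% to 74% of coding genes had one in any one list. VIM1 had folds of 3.55 to 7.29, VIM2 of 4.11 to 6.72 and VIM3 of 3.49 to 6.48, and in the median list 99.0%, 99.0% and 98.4% of peaks were lower. VIM4 had 5.07 and 4.28 in Col-0, 3.59, 1.67 and 3.96 in SDG2-ZF, 5.20 in SDG2-ZF_rdd and 5.08 in rdd. VIM5 ranged from 2.24 to 4.33. The start of VIM4 thus held H2A.Z in Col-0, where the set 1 lists had no H3K4me3 peak, and the stretch covered in both Col-0 libraries contained the 529 bp segment whole.

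By percent covered the groups overlapped at VIM4. By fold all 3 SDG2-ZF libraries were below both Col-0 libraries, but the share of coding genes that separate by fold was not counted. Replicate 2 of SDG2-ZF stood apart. There a single peak of fold 1.67 ran from 70 bp upstream to 2844 bp downstream of VIM4 and covered 72.5% of the region, against 17.6% and 11.5% in replicates 1 and 3 and 23.0% and 17.3% in Col-0. Its summit, at 1704 bp, lay in the stretch identical to VIM2, and in that library VIM2 was covered over 63.0%. Coverage of VIM4 was 33.9% ± 33.6 (SD, n = 3) against 20.2% ± 3.99 (SD, n = 2), with exact permutation p = 0.9. Within sets the direction differed. In set 4, SDG2-ZF minus Col-0 was −8.42 points at VIM4, −3.97 at VIM2, −10.5 at VIM3, −2.56 at VIM1 and −17.6 at VIM5. In set 5, with 1 library a side, it was 55.2 points at VIM4, 43.9 at VIM2, 14.8 at VIM3, 16.6 at VIM1 and 30.1 at VIM5. List length moved the same way, with 18658 and 12217 peaks in SDG2-ZF against 28280 in Col-0 in set 4, and 29052 against 21273 in set 5, and its part in the difference was not tested. No member was gained or lost, beside 0.273% and 1.87% of coding genes. When only replicate numbers held by both groups were kept (the replicate block), SDG2-ZF replicate 3 dropped out. VIM2 was then gained, 1 of 5. VIM2 was lost without SDG2-ZF replicate 2, and VIM3 without Col-0 replicate 2.

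Myc-tagged ROS1, a DNA glycosylase that removes methylated cytosine, was listed at VIM4 only with SDG2-ZF. Both ROS1xSDG2-ZF libraries had a start peak, at 3.85 and 2.68, and neither ROS1 library nor the untagged Col-0 library had one. Of all coding genes, 34.5% and 14.1% had a start peak in the ROS1xSDG2-ZF lists, and 23.4% and 20.2% in the ROS1 lists. The VIM4 peaks ran from 249 and 119 bp upstream to 430 and 208 bp downstream, with summits at 119 and 21 bp. Their shared stretch of 328 bp overlapped the H3K4me3 segment of SDG2-ZF by 218 bp, which is 41.2% of the H3K4me3 segment and 66.5% of the ROS1 stretch. It differed from VIM2 at 21 of 307 aligned bases, and 0 of its 179 inner 150-base words had another copy. Of the 50-base words that start in it, 22.0% had one. Coverage was 12.5% ± 6.19 (SD, n = 2) against 0% (n = 2), again at the smallest exact permutation p of 0.333. The ROS1xSDG2-ZF list was the longer of the pair in set 4, with 14212 peaks against 9724, and the shorter in set 7, with 5580 against 7924. In both sets VIM4 had a peak only in ROS1xSDG2-ZF, and the part of list length in this was not tested. One of 5 members was gained and none lost, beside 1.09% and 0.66% of coding genes.

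At the other members ROS1 peaks were fewer or did not separate the lines. VIM1 had 2.49 and none in ROS1 and 2.56 and 2.2 in ROS1xSDG2-ZF, from within 100 bp of its start. VIM3 had peaks in ROS1xSDG2-ZF replicate 1 alone, the higher at 3.68, and VIM2 and VIM5 had none in any Myc list. With JMJ14, VIM3 had 1 peak of 2.01 in JMJ14xTRBIP1-ZF replicate 1, and no other member had any. No member was gained or lost there, beside 3.52% and 0.514%. Tests of coverage for each member in each of the 9 comparisons outside the one that chose VIM4 made 45 in all. No exact permutation p was at or under 0.05 before adjustment, and none could be, since the smallest these designs allow are 0.0667, 0.1 and 0.333. In 8 of the 45 the groups did not overlap. In SDG2-ZF_rdd these were VIM1, VIM3 and VIM4, beside 31.5% of all coding genes, and VIM1 went to a difference of 0 with equal numbers of peaks. In TRBIP1-dCAS9-MQ1v they were VIM2 and VIM3, beside 25.2%, in H3K14ac VIM2 and VIM4, beside 34.3%, and in ROS1xSDG2-ZF VIM4, beside 4.76%. In the other 5 comparisons no member separated, beside 31.4% of coding genes in SunTag-SDG2_rdr6, 3.94% in SDG2(H1866K)cd, 22.7% in TRBIP1-ZF, 8.83% for H2A.Z and 6.77% with JMJ14.

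The methylation genes around the family were read for the same calls, as 18 genes for methyltransferases, their partners, methyl-binding proteins and demethylases. In SDG2-ZF against Col-0, 2 of 18 were gained, beside 5.57% of all coding genes, and none lost, and with equal numbers of peaks 0 were gained. MET1, the CG methyltransferase that VIM proteins serve, gained a stretch 5351 to 5728 bp into the gene (folds 1.71 to 2.43). DDM1, the remodeller needed for methylation of heterochromatin, gained a stretch of 373 bp upstream of its start (1.53 to 2.59). In both the folds were below those of VIM4.

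In SDG2-ZF_rdd 5 of 18 were gained, beside 7.32% of all coding genes, and none lost, and with equal numbers of peaks 0 of 18 were gained. These were the plant chromomethylases CMT2 and CMT3, the H3K9 methyltransferase SUVH5, the mutated demethylase gene DML3 and the VIM relative ORL1. ORL1 (ORTHRUS-LIKE 1) was gained 110 to 337 bp downstream of its start, at folds of 2.54 and 4.25. With SunTag-SDG2_rdr6, CMT3 was gained and SUVH5 lost, each 1 of 18, beside 2.88% and 0.321% of all coding genes. With TRBIP1-ZF, ORL1 was gained at 1.68 and 2.62, 1 of 18 beside 0.692%. There ROS1 lost a stretch of 805 bp from 114 to 918 bp, where fwa had folds of 3.66 and 3.84, 1 of 18 beside 0.78%. With TRBIP1-dCAS9-MQ1v, MET1 was gained 14 to 480 bp downstream of its start, at 2.56 and 3.56, 1 of 18 beside 0.791%. For H3K14ac in SDG2-ZF, CMT3 was gained, 1 of 18 beside 5.07% of all coding genes. MET1, DME and SUVH6 were lost, 3 of 18 beside 2.36% of all coding genes and 0 of 18 at −log10 q of at least 5. For H2A.Z, DML2 was lost, 1 of 18 beside 1.87%. The mutant SDG2 line, ROS1 and JMJ14 gave no call in the 18.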

How the data were processed

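Chromatin immunoprecipitation (Myc tag, H2A.Z, H3K14ac, H3K4me3) was read from the peak lists that the authors deposited, 1 list for each of 50 libraries in 27 groups. The other 41 of 91 samples were not analysed here. The submitters' processing notes name Trim Galore 0.6.5, Bowtie2 2.1.0, SAMtools 1.9, MACS2 2.2.1 and deepTools 3.1.3 on TAIR10. Per the study's methods, duplicates were removed and peaks were called for each library. The fold enrichment deposited by the authors is a ratio of the peak summit to a local background estimated by MACS2, as are the deposited −log10 p and −log10 q. The study's methods do not say whether input libraries served as that background. Lists do not share a threshold: the lowest −log10 q was 2 or above in 23 lists and lower, at about 1.3, in 27. Read depth is not held in the lists, so list length stands for it and intervals that need counts were not given. Lists show called peaks only, and a missing peak is not a measured level of 0.

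Peaks were matched to genes with the RefSeq annotation of TAIR10. Of the listed peaks, 851404 were kept and 1490 on organelle sequences were left out. A replicated segment was at least 100 bp covered by every library of a group, and gained meant that the other group had no peak over any base of it. Percent covered was compared by exact two-sided permutation. The members and gene lists were chosen with earlier results of these data known. The genes named were the members, pathway genes with a call, FWA, the markers and the 5 genes most like VIM4. The same replicate numbers were compared by the correlation across 27444 genes of the paired differences. It was −0.0042 to 0.57 over 9 comparisons of 2 pairs each. Labels tie equal numbers to a shared set in the rdd, fwa, H2A.Z and ROS1 comparisons. Between replicate lists at most 0.0126% of intervals had exactly the same start and end, which checks for duplicated lists and does not measure overlap. The segment calling was tested on simulated data, where 199 of 200 planted gained segments in 3 against 2 lists were recovered. Each was planted in all 3 lists and in neither of the 2, so high recovery was built in. Peaks missed in some lists were not simulated. Pairwise alignments were made with Biopython 1.88, and all else with Python 3.11.15, NumPy 2.4.6, SciPy 1.17.1 and matplotlib 3.10.9. Alternatives were other q thresholds, equal list lengths, a 300 bp minimum, 50% overlap, the gene span alone, each library left out and the replicate block.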

Additional observations from a re-analysis of the deposited data

Results flagged for a closer look

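For H2A.Z, the difference in percent covered between SDG2-ZF and Col-0 was below 0 in set 4 and above 0 in set 5 at VIM1, VIM3, VIM4 and VIM5, with every library on its side. The difference between the sets was not tested. The set 5 difference exceeded that of set 4 by 63.6 points at VIM4, 47.8 at VIM5, 25.3 at VIM3 and 19.1 at VIM1.

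Several values came from libraries that had 1 replicate a side and entered no comparison. For H3K14ac, SDG2-ZF_rdd covered 16.1% of VIM3, 10.6% of VIM5 and 5.88% of VIM1, where the rdd list, with 5635 peaks, covered 0%. For H2A.Z, SDG2-ZF_rdd covered 36.8% of VIM1 against 15.2% in rdd, 45.7% of VIM2 against 7.77%, 18.0% of VIM3 against 10.2%, 43.8% of VIM4 against 16.8% and 42.2% of VIM5 against 19.1%. The SDG2-ZF_rdd list was the longer one, with 30556 peaks against 21066, and its part was not tested. For H3K4me3, dCAS9-MQ1v covered 11.8% of VIM3, above the 7.84% and 9.98% of fwaxrdr6.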

How the results depend on the processing

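The gained call of VIM4 held in 12 of 12 alternatives in SDG2-ZF, 11 of 11 in SDG2-ZF_rdd and 11 of 11 in ROS1xSDG2-ZF. Among these, the replicate block was the main call itself in SDG2-ZF_rdd and ROS1xSDG2-ZF. In SDG2-ZF it was the same as leaving out replicate 3. Of 222 recomputed counts of members, 202 stayed within 1.5 times, and of 86 recomputed test values 4 changed sign and 2 fell to 0 (VIM1 and VIM2 with equal numbers of peaks). With −log10 q of at least 5, the gained count in TRBIP1-dCAS9-MQ1v rose to 2 (VIM1 and VIM2), the H3K14ac counts gained and lost fell to 0, and the VIM2 difference over rdd and rdr6 turned to −0.293 points. With a 300 bp minimum, the gained count in TRBIP1-dCAS9-MQ1v and both H3K14ac counts were 0. The cause was not tested.

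With the replicate block, H2A.Z gave 1 gained member (VIM2), the VIM4 excess over its paralogues was 8.08 points (exact permutation p = 0.375, smallest 0.125) and the VIM4 difference 9.94 points (exact permutation p = 0.5). The block changed no other count of members, and where both groups held the same replicate numbers, as in SDG2-ZF_rdd and ROS1xSDG2-ZF, it could not. For the test values, labels were exchanged only within equal replicate numbers.

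With 1 library left out, gained counts were 1 to 2 in SDG2-ZF (VIM1 too without replicate 1), 1 to 3 in SDG2-ZF_rdd (VIM1 and VIM3 without rdd replicate 1), 0 to 1 in SunTag-SDG2_rdr6 (VIM2 without replicate 1, VIM1 without rdr6 replicate 2), 0 to 1 in TRBIP1-ZF (VIM1 without replicate 1), 1 to 2 in TRBIP1-dCAS9-MQ1v (VIM1 without fwaxrdr6 replicate 1), 0 to 1 for H2A.Z (VIM2 without SDG2-ZF replicate 3), 1 to 2 in ROS1xSDG2-ZF (VIM3 without its replicate 2, VIM1 without ROS1 replicate 1) and 0 to 1 in JMJ14xTRBIP1-ZF (VIM3 without replicate 2). Lost counts were 1 to 2 for H3K14ac (VIM3 without Col-0 replicate 2) and 0 to 1 for H2A.Z (VIM2 without SDG2-ZF replicate 2, VIM3 without Col-0 replicate 2). The VIM2 difference ranged from −1.51 to 3.56 points, that of VIM1 from 2.07 to 6.12, that of VIM3 from 0.063 to 4.71, that of VIM4 from 9.30 to 10.6, and the VIM4 excess from 6.34 to 9.78.

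Among 135 recomputed single differences 12 changed sign. In the mutant SDG2 line these were VIM1 at 1.86 and VIM3 at −0.433 with equal lists, VIM2 at −1.71 and VIM3 at −1.94 at −log10 q of 5, and VIM2 at −0.546 at 2. For H3K14ac they were VIM3 at 0.389 and VIM5 at 2.47 at 5. For H2A.Z they were VIM1 at −1.50, VIM4 at −10.4 and VIM5 at −4.97 with equal lists, and VIM4 at −10.4 and VIM5 at −1.81 at 5. Of 60 pathway counts 14 moved. The shortest lists were untagged Col-0 (808 peaks) and JMJ14 (1572) for Myc and rdd (5635) for H3K14ac.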
